A study of Rattus norvegicus with 9 samples.

Results

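The genes described here are 10 that fat cells are known to express: Ucp1, Lpl, Adipoq, Fabp4, Plin1, Cfd, Lep, Cidec, Retn and Lipe. Their signals were read in kidney RNA of 9 male rats of 3 strains, the spontaneously hypertensive rat (SHR), the Dahl Salt Sensitive rat (Dahl S) and the Dahl Salt Resistant rat (Dahl R), with 3 rats and 3 one-colour arrays per strain. They were taken by name and matched to probes through the RefSeq identifier of each probe. Of the 10, 9 had a probe, each with 1 probe and 1 spot, among 13903 named genes and 24684 probes on the array. No probe was matched to Plin1. Every rat was 53 days old, was weaned at 30 days and then ate a diet with 0.3% salt, and the labels give no genetic change and no drug in any group. SHR is an inbred strain that becomes hypertensive on ordinary food, Dahl S becomes hypertensive when fed salt, and Dahl R was selected from the same stock as Dahl S for resistance to salt. The labels say that the rats were born on one day and do not say whether they shared litters, so p-values here measure spread among these 9 samples.

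White fat cells keep triglyceride in 1 large droplet and secrete hormones such as adiponectin and leptin. Brown fat cells hold many small droplets and burn fatty acids for heat, for which they use the mitochondrial uncoupling protein Ucp1. The kidney lies in a fat pad, and in rodents the fat around the kidney and its vessels can hold brown as well as white fat cells. Some of the 10 genes are not restricted to fat cells: the lipase Lpl and the fatty acid carrier Fabp4 are also made by other cells, Fabp4 for example by endothelium and macrophages. In bulk tissue, fewer cells of a type and less RNA per cell cannot be told apart.

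Levels are given as log2 of the processed signal minus log2 of the 75th percentile of all spots on the same array, so that 0 is a signal equal to that percentile. Levels of different probes are not set against each other. A spot that the scanner software marked as an outlier was left out of the fits, and its value is named where this happened. Differences are log2 differences ± their standard error (SE) from limma, fitted to all 16592 tested probes with 1 spread per probe estimated from all 9 arrays. Adjusted p-values are Benjamini-Hochberg values over those probes, with 0.05 as the threshold.

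On 8 arrays, 60.1% to 70.3% of probes were well above background. SHR replicate 3 stood apart, with 43.1% of probes well above background and 7.93% of spots marked as outliers, and 3 of the fat cell genes lost their spot on that array. Dahl S replicate 1 correlated at 0.973 and 0.974 with the other Dahl S arrays, which correlated at 0.996 with each other. SHR replicate 3 correlated at 0.955 and 0.956 with the other SHR arrays, which correlated at 0.994 with each other. By the scan time in the file headers, scan 1 held the 3 Dahl S arrays and Dahl R replicate 1, scan 2 held Dahl R replicates 2 and 3 and SHR replicates 1 and 2, and scan 3 held SHR replicate 3 alone. No scan held both SHR and Dahl S. The kidney label was borne out by kidney markers: all 11 measured, among them Umod and Nphs1, were well above background on all 9 arrays.

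Of the 8 tested fat cell genes, Ucp1 and Lpl passed the threshold, both higher in SHR than in Dahl S and in Dahl R kidneys. Each had 2 usable SHR arrays. Over all tested probes, 15.7% passed between SHR and Dahl S and 13.0% between SHR and Dahl R. The Ucp1 call against Dahl R held under 4 of 21 alternative processing choices. For Ucp1 the SHR mean was 3.97 times the Dahl S mean, and for Lpl it was 3.22 times the Dahl S mean. None of the other 6 tested genes passed the threshold in any comparison. Dahl S and Dahl R kidneys did not differ past the threshold in any of the 8 tested genes. Lep, the gene of the satiety hormone leptin, was well above background on 0 of 9 arrays and was not tested, while each of the other 8 measured genes was well above background on all 9.

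The 250 bases upstream of the start are shown for Ucp1, which among the tested fat cell genes had the largest reported difference between SHR and Dahl S, and for Adipoq and Retn, secreted products of fat cells that did not pass in any comparison. They are RefSeq sequences of the GRCr8 build, on the gene's own strand. Capitals mark the matches to 4 motifs searched on both strands, spelled out with their results after the sequences. Ucp1 lies at chr19:41721422-41721671 on the minus strand, Adipoq at chr11:91240170-91240419 on the minus strand and Retn at chr12:6508524-6508773 on the plus strand.
Ucp1: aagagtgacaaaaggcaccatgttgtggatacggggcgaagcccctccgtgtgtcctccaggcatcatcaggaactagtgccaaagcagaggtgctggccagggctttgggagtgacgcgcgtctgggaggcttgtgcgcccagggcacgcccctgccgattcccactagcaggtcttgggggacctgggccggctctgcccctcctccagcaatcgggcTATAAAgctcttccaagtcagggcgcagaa
Adipoq: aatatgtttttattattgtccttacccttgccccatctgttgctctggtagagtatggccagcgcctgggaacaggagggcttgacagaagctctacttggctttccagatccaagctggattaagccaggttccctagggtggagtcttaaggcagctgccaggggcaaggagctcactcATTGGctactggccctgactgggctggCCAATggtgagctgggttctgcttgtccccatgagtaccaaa
Retn: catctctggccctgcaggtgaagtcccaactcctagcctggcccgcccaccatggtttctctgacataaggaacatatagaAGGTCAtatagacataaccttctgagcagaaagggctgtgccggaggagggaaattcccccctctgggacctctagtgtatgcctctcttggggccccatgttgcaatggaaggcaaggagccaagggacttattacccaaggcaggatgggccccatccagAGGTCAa

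Promoters of 7 of the 10 genes were in the sequence table. The TATA box letters TATAAA were found in the Ucp1 window, from base -30 to base -25, and in 12.9% of 33469 rat promoter windows of the same length. The nuclear receptor core site AGGTCA was found at 2 places in the Retn window, from -169 and from -7, and in 14.1% of all windows. The CCAAT box was found at 2 places in the Adipoq window, once on each strand, and in the windows of Lep and Plin1, against 34.0% of all windows. A C/EBP type site, TTGCNNAA, was found in the windows of Cidec, Lep and Plin1 and in 9.22% of all windows. Each match describes letters in the window and says nothing of binding in these kidneys.

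**Figure D1:**
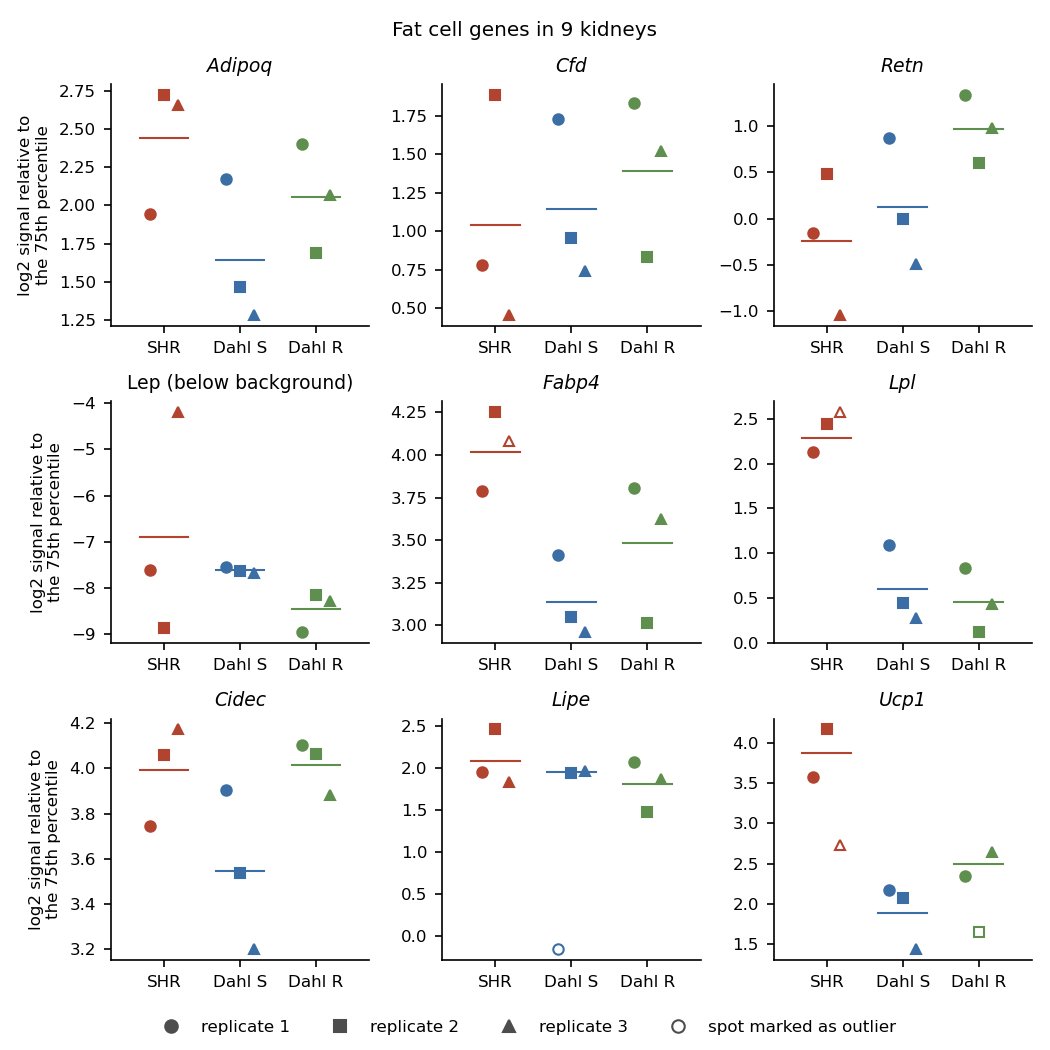
Level of each fat cell gene on the 9 arrays, as log2 signal against the 75th percentile of that array (vertical axis, scaled per gene), for SHR, Dahl S and Dahl R kidneys. Marker shape is the replicate number, hollow markers are spots marked as outliers and bars are means of the other spots; Ucp1 and Lpl in SHR lie above every Dahl value, and no Lep spot was well above background.

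Of the 8 tested fat cell genes, 2 were past the threshold between SHR and Dahl S, both higher in SHR, where 15.7% of all tested probes were past it, 8.62% higher and 7.08% lower in SHR. Between SHR and Dahl R, again 2 of 8 were past it and higher in SHR, against 13.0% of all tested probes, 7.56% higher and 5.49% lower in SHR. Between Dahl S and Dahl R, 0 of 8 were past it by limma, against 1.40% of all tested probes. There, 1 of 8, Cidec, had an unadjusted p under 0.05, as had 1262 of 10861 tested genes. With array weights in limma 1 of 8, again Cidec, passed, as did 2054 of the 16592 probes. The 2 SHR comparisons share the SHR arrays, and the 3 comparisons share arrays in pairs.

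**Figure D2:**
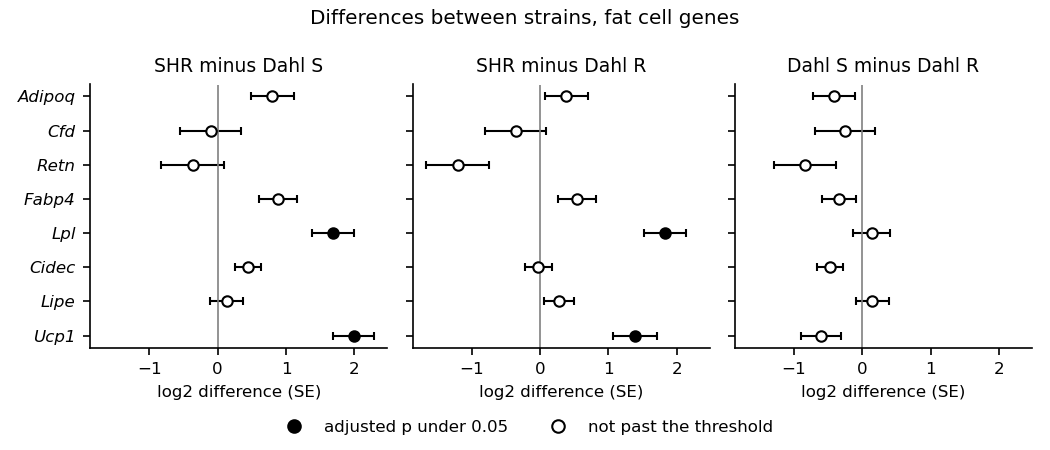
Log2 difference (horizontal axis, point with SE bar) of each of the 8 tested fat cell genes in SHR minus Dahl S, SHR minus Dahl R and Dahl S minus Dahl R. Filled points passed an adjusted p of 0.05: Lpl and Ucp1 in both SHR comparisons, and no gene between the Dahl strains.

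Ucp1, the proton carrier of brown fat mitochondria, had levels of 3.58 and 4.17 in SHR replicates 1 and 2, against 2.17, 2.07 and 1.43 in Dahl S replicates 1 to 3 and 2.34 and 2.64 in Dahl R replicates 1 and 3. The marked spots, not used in the fit, read 2.73 in SHR replicate 3 and 1.64 in Dahl R replicate 2. The usable SHR values lay above all Dahl values, and the marked SHR spot also lay above them, though by less. SHR lay above without overlap for 22.7% of all tested probes against Dahl S and 24.7% against Dahl R. Here and below, such shares count all tested probes, many with more usable spots than Ucp1 or Fabp4. Fewer values per strain separate more easily. Ucp1 was higher in SHR than in Dahl S by 1.99 ± 0.30 (adjusted p = 0.0102, 2 against 3 usable arrays). It was higher in SHR than in Dahl R by 1.38 ± 0.32, or 2.61-fold (adjusted p = 0.0468, 2 against 2 usable arrays). The comparison with Dahl R lay close to the threshold and passed it under 4 of 21 alternatives, with adjusted p from 0.0185 to 0.20 over the alternatives. With scan as a block the difference was 1.24 ± 0.37 (adjusted p = 0.0934). Within scan 2, where the Dahl R replicate 2 spot was marked, it was also 1.24. These are the same estimate, because only scan 2 held both SHR and Dahl R.

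The comparison of Ucp1 with Dahl S passed under 18 of 20 alternatives. It did not pass with scan as a block, where the difference was 1.69 ± 0.55 (adjusted p = 0.191), or in the authors' deposited processed values, where it was 1.55 (adjusted p = 0.0682). Dahl S and Dahl R levels of Ucp1 did not overlap among usable spots, with Dahl S lower, a separation that 31.1% of all tested probes showed in either direction and 12.9% with Dahl S lower; the difference of -0.60 ± 0.30 did not pass (adjusted p = 0.60). Keeping the marked Dahl R spot at 1.64, the Dahl levels overlapped.

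Lpl, lipoprotein lipase, releases fatty acids from circulating triglyceride at the vessel wall. Its level was 2.13 and 2.44 in SHR replicates 1 and 2, against 1.09, 0.44 and 0.27 in Dahl S replicates 1 to 3 and 0.84, 0.11 and 0.43 in Dahl R replicates 1 to 3. The marked SHR replicate 3 spot read 2.57. All SHR values, this one included, lay above all Dahl values. Lpl was higher in SHR than in Dahl S by 1.69 ± 0.30 (adjusted p = 0.0130) and higher than in Dahl R by 1.83 ± 0.30, or 3.55-fold (adjusted p = 0.0112), over 2 SHR and 3 Dahl arrays each. With scan as a block the differences were 2.25 ± 0.44 from Dahl S (adjusted p = 0.0477) and 2.01 ± 0.29 from Dahl R (adjusted p = 0.00931), and within scan 2 the difference from Dahl R was 2.01 ± 0.17 (adjusted p = 0.015).

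The Lpl calls rested in part on single arrays. Without SHR replicate 2, which left 1 usable SHR spot assumed to vary like the others, the adjusted p was 0.0634 against Dahl S and 0.0561 against Dahl R. Without Dahl S replicate 2 it was 0.0538 against Dahl S. The difference stayed between 1.52 and 2.25 against Dahl S and between 1.65 and 2.01 against Dahl R under every alternative run. Between Dahl S and Dahl R, Lpl differed by 0.14 ± 0.27 (adjusted p = 0.956).

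**Figure D3:**
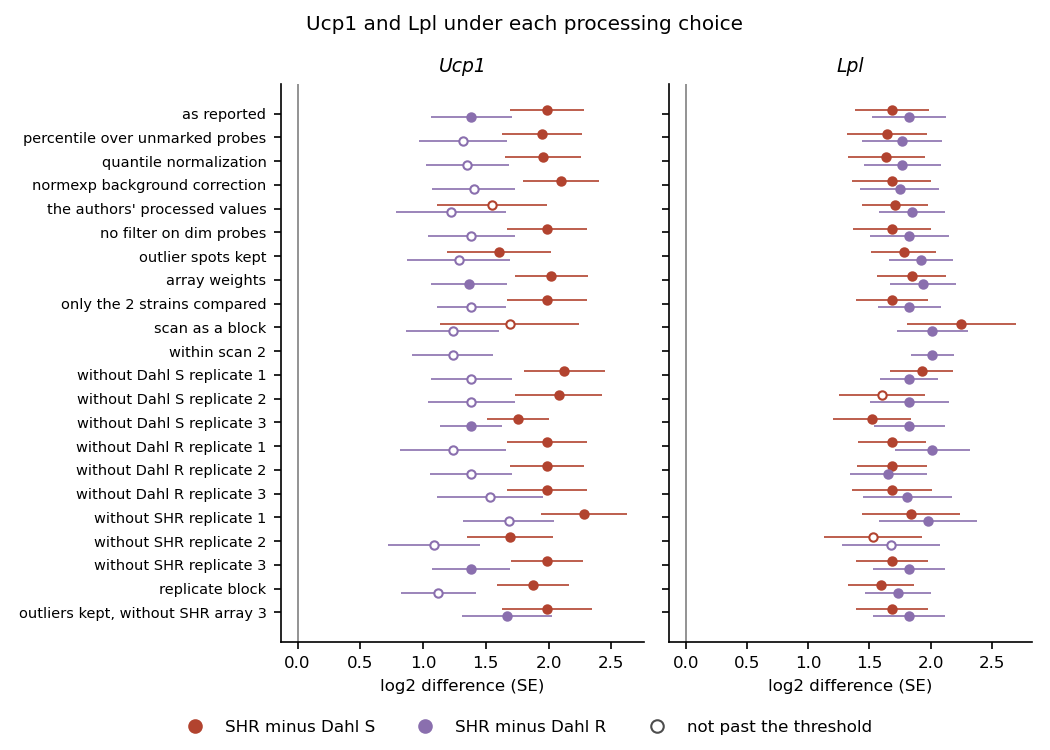
Log2 difference with its SE (horizontal axis) of Ucp1 and Lpl in SHR minus Dahl S and SHR minus Dahl R, for the reported setting (top) and each alternative. All points lie above 0. Filled points passed an adjusted p of 0.05: against Dahl S in 18 of 20 alternatives for Ucp1 and for Lpl, and against Dahl R in 4 of 21 for Ucp1 and 20 of 21 for Lpl.

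Fabp4, which carries fatty acids inside fat cells, read 3.79 and 4.25 in SHR replicates 1 and 2, against 3.41, 3.05 and 2.96 in Dahl S and 3.80, 3.02 and 3.62 in Dahl R. Its marked SHR replicate 3 spot read 4.08. SHR values lay above all Dahl S values and overlapped Dahl R, a separation that 37.9% of tested probes showed between SHR and Dahl S in either direction. The difference from Dahl S was 0.88 ± 0.28 (adjusted p = 0.0812) and did not pass; with marked spots kept it was 0.90 and passed (adjusted p = 0.0397). The difference from Dahl R was 0.54 ± 0.28 (adjusted p = 0.263).

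Among the secreted proteins, Adipoq encodes adiponectin, a hormone that raises insulin sensitivity. It read 1.94, 2.72 and 2.66 in SHR replicates 1 to 3, against 2.17, 1.46 and 1.28 in Dahl S and 2.40, 1.69 and 2.07 in Dahl R. All 3 strains overlapped, with SHR replicates 2 and 3 the highest. The difference was 0.80 ± 0.31 for SHR minus Dahl S (adjusted p = 0.127), 0.39 ± 0.31 for SHR minus Dahl R (adjusted p = 0.461) and -0.41 ± 0.31 for Dahl S minus Dahl R (adjusted p = 0.776).

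Retn encodes resistin, a secreted protein that fat cells make in rodents. It read -0.15, 0.48 and -1.04 in SHR replicates 1 to 3, against 0.87, -0.003 and -0.49 in Dahl S and 1.32, 0.59 and 0.98 in Dahl R. All SHR values lay below all Dahl R values, as 38.7% of probes did not overlap between these strains, 14.1% with SHR below. SHR minus Dahl R was -1.20 ± 0.46 (adjusted p = 0.137) and did not pass, and its sign was the same under all 21 alternatives. SHR minus Dahl S was -0.37 ± 0.46 (adjusted p = 0.612), and Dahl S minus Dahl R was -0.84 ± 0.46 (adjusted p = 0.628).

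Cfd encodes adipsin, the protease that starts the alternative complement pathway. It read 0.78, 1.88 and 0.45 in SHR, against 1.73, 0.95 and 0.74 in Dahl S and 1.83, 0.83 and 1.52 in Dahl R. The 3 strains overlapped throughout, and SHR held both the highest and the lowest of the 9 values. SHR minus Dahl S was -0.10 ± 0.44 (adjusted p = 0.891), and SHR minus Dahl R was -0.36 ± 0.44 (adjusted p = 0.634). Lep signals read -7.61, -8.87 and -4.20 in SHR, between -7.67 and -7.54 in Dahl S and between -8.96 and -8.15 in Dahl R, none well above background, so they have no order between strains.

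Of the droplet proteins, Cidec, which helps droplets fuse and grow, read 3.74, 4.06 and 4.17 in SHR, against 3.91, 3.54 and 3.20 in Dahl S and 4.10, 4.06 and 3.88 in Dahl R. SHR overlapped both Dahl strains. SHR minus Dahl S was 0.45 ± 0.19 (adjusted p = 0.163) and SHR minus Dahl R was -0.02 ± 0.19 (adjusted p = 0.948). Dahl S minus Dahl R was -0.47 ± 0.19 (adjusted p = 0.448), and with array weights it was -0.53 and passed (adjusted p = 0.0338).

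Lipe encodes hormone-sensitive lipase, which cuts stored diglyceride. It read 1.95, 2.46 and 1.84 in SHR, against 1.94 and 1.96 in Dahl S replicates 2 and 3 and 2.07, 1.48 and 1.87 in Dahl R. The marked spot of Dahl S replicate 1 read -0.17, far below the other 8 values, which overlapped between strains. SHR minus Dahl S was 0.13 ± 0.24 (adjusted p = 0.734) and SHR minus Dahl R was 0.28 ± 0.21 (adjusted p = 0.447).

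The fat cell genes were also read relative to Adipoq on the same array, as log2 differences whose zero has no meaning between probes but whose change between strains does. Lpl minus Adipoq was 0.19 and -0.28 in SHR replicates 1 and 2, against -1.09 to -1.01 in Dahl S and -1.64 to -1.56 in Dahl R. With the marked spot, SHR replicate 3 gave -0.09. Ucp1 minus Adipoq was 1.64 and 1.45 in SHR replicates 1 and 2, against -0.01 to 0.61 in Dahl S and -0.06 to 0.57 in Dahl R. With the marked spot, SHR replicate 3 gave 0.07, inside both Dahl ranges. Lpl relative to Adipoq was thus higher in all SHR kidneys, and Ucp1 relative to Adipoq in the 2 SHR kidneys with a usable spot. Retn minus Adipoq was -2.09, -2.24 and -3.70 in SHR replicates 1 to 3, against -1.77 to -1.30 in Dahl S and -1.10 to -1.07 in Dahl R, so that the SHR values lay lower, replicate 3 by the most. Fabp4 and Cidec relative to Adipoq overlapped between SHR and both Dahl strains. Cfd and Lipe relative to Adipoq overlapped between SHR and Dahl R and lay lower in SHR than in Dahl S among usable spots. These differences within arrays were not tested.

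**Figure D4:**
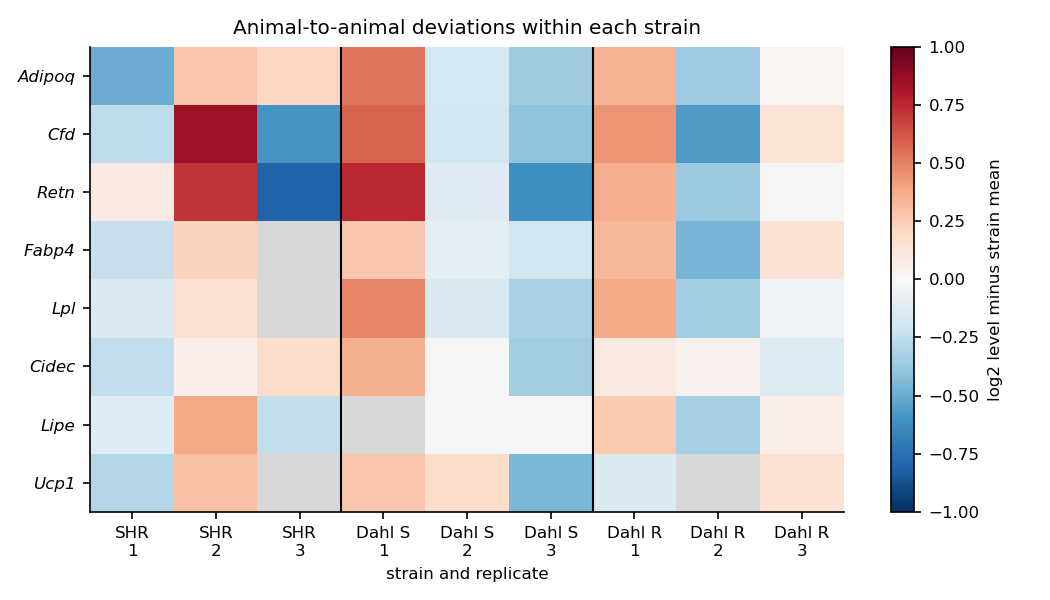
Deviation of each tested fat cell gene (rows) on each array (columns) from the mean of its strain, in log2 units by colour, with marked spots in grey. Dahl S replicate 1 was above its strain mean in all 7 genes with a usable spot and Dahl S replicate 3 was the lowest in the same 7.

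Within both Dahl strains, the fat cell genes tended to be high or low on the same arrays, while the SHR arrays gave a mixed order. In SHR, replicate 2 was above replicate 1 for 8 of 8 genes, where 46.7% of 10752 genes were. Of the 5 genes with usable spots on all 3 SHR arrays, replicate 2 was the highest for 4 and replicate 3 for 1 (Cidec), and the lowest was replicate 1 for 2 (Adipoq and Cidec) and replicate 3 for 3 (Cfd, Lipe and Retn). The place of SHR replicate 3 in this order depends on its scaling. Its 75th percentile was 1462 over all spots and 710 over those without an outlier mark. The other arrays moved far less, for example Dahl S replicate 1 from 2120 to 2081. In Dahl S, replicate 1 was the highest and replicate 3 the lowest of the 3 for 7 of 7 genes with values on all 3 arrays, where 64.5% and 42.0% of all such genes were. In Dahl R, replicate 1 was the highest for 7 of 7 and replicate 2 the lowest for 6 of 7, against 38.6% and 33.6% of genes. The gene left out of each Dahl count for a marked spot did not follow the order. Ucp1 in Dahl R read 2.34 in replicate 1 and 2.64 in replicate 3. Lipe in Dahl S read 1.94 in replicate 2 and 1.96 in replicate 3. The array of Dahl S replicate 1 differed from its strain over all probes too, and its part in the pattern was not tested.

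The fat cell genes varied more within strains than most genes. The within-strain standard deviation (SD) ran from 0.25 for Cidec to 0.63 for Retn, against a median of 0.205 over all tested genes. Without SHR replicate 3 it ran from 0.26 for Cidec to 0.58 for Cfd, against a median of 0.129, and all 8 genes then lay at or above the 80.5th percentile of genes. These SDs are not themselves the error of the tests above. Each reported strain difference was tested against its SE from limma (eBayes), with SHR replicate 3 in the fit.

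Other genes of white fat cells were counted from a list of 32 genes, of which 26 were tested. Between SHR and Dahl S, 8 were higher in SHR, 1 was lower and 17 did not pass, with a median difference of 0.40. Over all 10861 tested genes, 913 were higher, 798 were lower and the median difference was 0.06. The 8 were Scd (2.10 ± 0.50, adjusted p = 0.0339), a fatty acid desaturase; Thrsp (1.63 ± 0.32, adjusted p = 0.0176), a regulator of fat synthesis; Lgals12, a galectin of fat droplets; the insulin-responsive glucose carrier Slc2a4; the triglyceride-forming enzymes Dgat2 and Agpat2; the elongase Elovl6; and Pparg, the nuclear receptor that drives fat cell formation. Slc2a4 averaged 1.98 in SHR and 0.68 in Dahl S, a difference of 1.31 ± 0.12 (adjusted p = 0.0005), and Pparg averaged 0.82 in SHR and 0.06 in Dahl S, a difference of 0.77 ± 0.18 (adjusted p = 0.0249). With scan as a block, in a design where no scan held both strains, the list had 1 higher and 1 lower in SHR than in Dahl S. Over all genes, 214 were then higher and 337 lower. Over the 20 alternatives Scd passed against Dahl S in 9, Thrsp in 11 and Lgals12 in 6, none of them with scan as a block.

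The white fat list gave a similar count against Dahl R. There 7 of 26 were higher in SHR, 1 was lower and 18 did not pass, with a median difference of 0.35, against 851 higher, 630 lower and a median of 0.09 over all genes. Scd differed by 2.91 ± 0.50 (adjusted p = 0.0124) and Adrb3, the beta-3 adrenergic receptor that triggers fat release, by 1.73 ± 0.43 (adjusted p = 0.0396). Adrb3 averaged 0.03 in SHR and -1.70 in Dahl R, and passed in 6 of 21 alternatives, in none that left out a Dahl R array and neither with scan as a block nor within scan 2. The gene that was lower in SHR in both comparisons was Mgll, the monoglyceride lipase, at -0.17 in SHR, against 3.63 in Dahl S and 2.79 in Dahl R, 13.9-fold and 7.76-fold lower in SHR (adjusted p = 0.000511 and 0.00197). Mgll passed in all 20 and all 21 alternatives. The number of white fat genes higher in SHR than in Dahl S was 3 without SHR replicate 2, 4 without Dahl S replicate 2 or 3, 5 without Dahl R replicate 3 and 10 without SHR replicate 3. The count over all genes moved too, from 913 higher to 340 without Dahl S replicate 2 and 449 without Dahl S replicate 3. Against Dahl R the number of white fat genes higher in SHR was 3 without SHR replicate 2 or Dahl R replicate 1 or 2, 4 on leaving out Dahl S replicate 2, and 6 with SHR replicate 3 left out.

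Other genes of brown fat cells were counted from a list of 20, of which 14 were tested. Between SHR and Dahl S, 5 were higher in SHR, 0 were lower and 9 did not pass, with a median difference of 0.70. The share called was 35.7%, against 15.8% of all tested genes. Cox8b, a cytochrome oxidase subunit of brown fat and muscle, averaged 2.03 in SHR and 0.32 in Dahl S, a difference of 1.70 ± 0.22 (adjusted p = 0.00222). Ebf2, a transcription factor of brown fat precursors, differed by 1.90 ± 0.34 (adjusted p = 0.0100) with 2 of 3 SHR spots well above background; Plin5, a coat protein of droplets beside mitochondria, differed by 1.90 ± 0.37 (adjusted p = 0.0128). Cpt1b, the muscle form of the mitochondrial fatty acid gate, differed by 0.81 ± 0.15 (adjusted p = 0.0112), and the fatty acid carrier Slc27a1 by 0.59 ± 0.14 (adjusted p = 0.0252). With scan as a block the list had 1 higher and 1 lower in SHR than in Dahl S, where 214 of all genes were higher and 337 lower.

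Between SHR and Dahl R, 4 of the 14 brown fat genes were higher in SHR and 0 were lower, with a median difference of 0.57. The share called was 28.6%, against 13.6% of all tested genes. The 4 were Plin5, Cox8b, Cpt1b and Slc27a1, with differences from 1.48 ± 0.37 (Plin5, adjusted p = 0.0379) to 0.62 ± 0.14 (Slc27a1, adjusted p = 0.0248). Over the 21 alternatives Cox8b passed against Dahl R in 20, Cpt1b in 18, Slc27a1 in 9 and Plin5 in 8. Ppargc1a, a coactivator of mitochondrial genes, had a difference of -0.97 from Dahl S that did not pass. Leaving out Dahl S replicate 2 gave 2 higher in SHR than in Dahl S, and leaving out SHR replicate 3 gave 6 higher and 1 lower. Against Dahl R it was 2 without SHR replicate 2, Dahl R replicate 2 or 3 or Dahl S replicate 2, and 3, with 1 lower, without SHR replicate 3. Between Dahl S and Dahl R, limma called 0 of the 26 white fat genes, with 2 at an unadjusted p under 0.05, and 0 of the 14 brown fat genes, with 0 at an unadjusted p under 0.05.

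The counts of both fat lists also depended on the scaling of the arrays and on the test. Over all alternatives the white fat genes higher in SHR numbered 1 to 11 against Dahl S and 1 to 8 against Dahl R, and the brown fat genes 1 to 6 and 0 to 5. With the percentile taken over probes without an outlier mark, the median difference over all genes moved to 0.32 against Dahl S and 0.34 against Dahl R, and the white fat list had 1 higher and 1 lower in each comparison. The brown fat list then had 2 higher against Dahl S and 0 against Dahl R. With normexp background correction the white list had 2 higher and 1 lower in both comparisons and the brown list 1 higher and 0 lower in both. Under these settings 204 and 115 genes of the whole array were higher in SHR than in Dahl S, against the 913 given above.

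**Figure D5:**
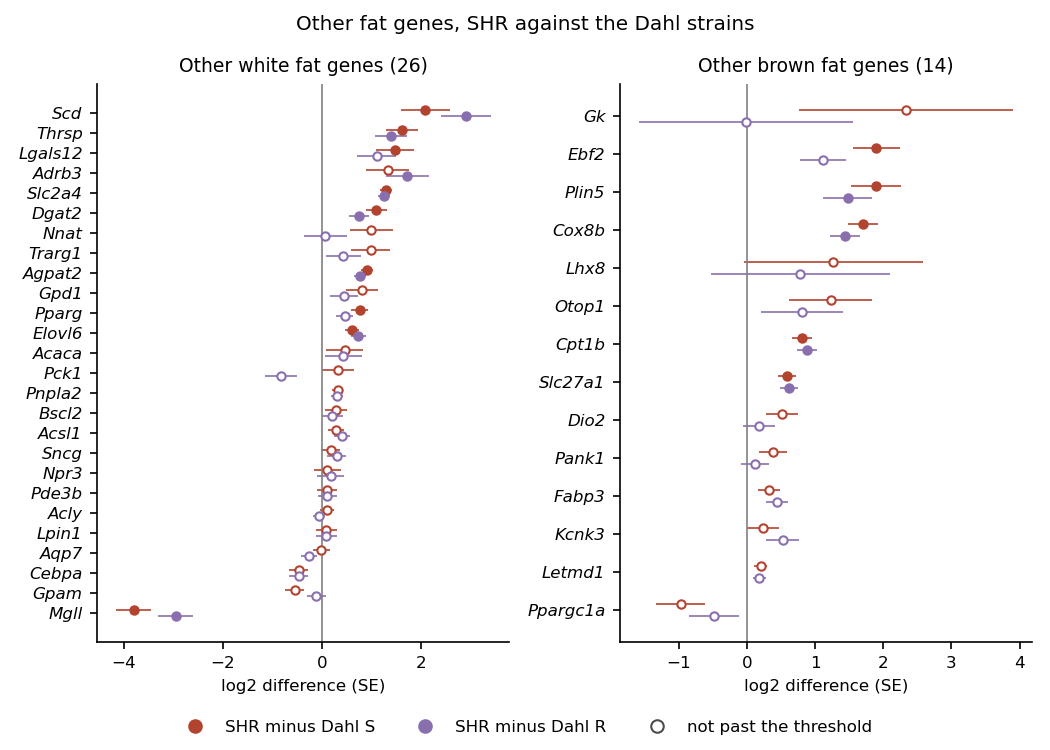
Log2 difference with its SE (horizontal axis) of the 26 tested white fat genes and the 14 tested brown fat genes, in SHR minus Dahl S and SHR minus Dahl R. Filled points passed an adjusted p of 0.05; most genes lie right of 0 and Mgll stands alone far to the left.

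The next list held genes that take up, store and release triglyceride in many cell types. Of 20 tested, 3 were higher and 2 lower in SHR than in Dahl S, with a median difference of -0.04. The same counts held against Dahl R, with a median of -0.03. The share called was 25% in each comparison, against 15.8% and 13.6% of all tested genes. Against Dahl S, 10 of 20 differences were positive as reported, 14 with the percentile over unmarked probes and 4 with quantile normalization, normexp or the authors' values, where the median ran from -0.45 to -0.26. The lower pair were Mgll and Cd36, the fatty acid translocase. The Cd36 gene is known to be defective in SHR lines, and whether these rats carry that defect was not tested. Cd36 averaged -0.94 in SHR, against 1.52 in both Dahl S and Dahl R, 5.51-fold lower than in Dahl S and 5.50-fold lower than in Dahl R (adjusted p = 0.000375 and 0.000459). The higher genes were Plin5, Dgat2 and Agpat2, which also stand in the fat lists.

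Receptors for fat hormones included genes lower in SHR. Of 9 tested, 0 were higher and 2 lower than in Dahl S, and 1 was higher and 2 lower than in Dahl R. The shares called were 22.2% and 33.3%, against 15.8% and 13.6% of all tested genes. Adipor2, a receptor for adiponectin, averaged 0.14 in SHR, against 2.19 in Dahl S and 1.88 in Dahl R, with differences of -2.05 ± 0.23 (adjusted p = 0.00126) and -1.73 ± 0.23 (adjusted p = 0.00308). Adipor2 did not pass against Dahl S with scan as a block or against Dahl R within scan 2. C3ar1, a complement receptor, was lower by 1.63-fold and 1.51-fold (adjusted p = 0.00513 and 0.0117) with 2 of 3 SHR spots well above background. Its difference ran from -1.61 to -0.40 against Dahl S, passing in 15 of 20 alternatives and not with scan as a block, and from -1.50 to -0.02 against Dahl R, passing in 13 of 21. The 1 higher gene was Adrb3.

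Markers of other cells that could come with fat were read beside these results. Of 10 tested connective tissue and fat precursor genes, 1 was higher in SHR than in Dahl S (Dpp4) and 1 lower (Dcn, 3.45-fold), and 0 passed against Dahl R, with 2 at an unadjusted p under 0.05. Of 9 endothelial genes, 2 were higher in SHR than in Dahl S (Emcn and Tek) and 1 than in Dahl R (Emcn). Of 11 macrophage genes, 0 were higher and 5 lower in SHR than in Dahl S, among them Mrc1 (2.44-fold) and Cx3cr1 (1.74-fold), and 1 was higher (Itgam) and 2 lower than in Dahl R. Over all 10861 tested genes, 913 were higher and 798 lower in SHR than in Dahl S, and 851 were higher and 630 lower than in Dahl R. That is 15.8% and 13.6% called, against 45.5% and 27.3% of macrophage genes and 40% and 20% of smooth muscle genes. The shares were 22.2% and 11.1% for endothelial genes and 20% and 0% for connective tissue genes. They were 9.09% for kidney genes and 0% for adrenal genes in each comparison. The 5 macrophage genes lower against Dahl S became 0 with scan as a block or with the percentile over unmarked probes, 1 with normexp, and 2 to 6 with 1 array left out. Of 5 smooth muscle genes, 1 was higher (Smtn) and 1 lower (Cnn1) against Dahl S, and 1 was higher (Smtn) against Dahl R. Aqp2, the water channel of the collecting duct, was the 1 of 11 kidney markers past the threshold in both SHR comparisons, higher in SHR by 0.59 ± 0.15 and 0.64 ± 0.15. Between Dahl S and Dahl R, 1 connective tissue gene (Dcn, 3.63-fold) and 1 kidney gene (Slc4a1, 1.72-fold) were higher in Dahl S, and limma called 0 genes of the triglyceride, receptor, endothelial, macrophage, smooth muscle and adrenal lists, with 1 to 3 per list at an unadjusted p under 0.05. Many of these marker calls were lost under other settings. Against Dahl S, Dcn passed in 19 of 20 alternatives, Mrc1 in 18, Cx3cr1 in 17, Emcn in 14, Smtn in 12, Cnn1 in 9, Aqp2 in 8, Dpp4 in 7 and Tek in 5, none of them with scan as a block. Against Dahl R, Smtn passed in 14 of 21, Emcn in 13, Aqp2 in 10 and Itgam in 7. Between Dahl S and Dahl R, Dcn passed in 11 of 21 and Slc4a1 in 5, both lost with scan as a block, within scan 1 and on leaving out any Dahl array. The 6 tested adrenal genes gave 0 calls in both SHR comparisons, with 1 and 2 at an unadjusted p under 0.05.

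The summed level of the fat cell genes with a usable spot on every array, in units of the 75th percentile, ran from 19.9 to 28.4 in SHR, from 14.0 to 24.7 in Dahl S and from 23.2 to 28.5 in Dahl R, so the strains overlapped. This sum holds Adipoq, Cfd, Cidec, Retn and the undetected Lep, and neither Ucp1 nor Lpl. Cidec made up most of it, for example 15.0 of 24.7 in Dahl S replicate 1 and 18.0 of 26.2 in SHR replicate 3. Like it, each sum below follows its brightest probes. The sum over 15 brown fat probes ran from 45.1 to 51.9 in SHR, from 28.5 to 35.2 in Dahl S and from 37.4 to 40.2 in Dahl R, with no overlap between SHR and either Dahl strain. Other sums also separated SHR from both Dahl strains: endothelium ran from 61.9 to 83.5 in SHR, from 49.3 to 56.0 in Dahl S and from 47.3 to 50.1 in Dahl R, and smooth muscle from 47.3 to 64.7 in SHR, from 38.7 to 40.9 in Dahl S and from 35.8 to 36.9 in Dahl R. The tops 51.9, 83.5 and 64.7 were all SHR replicate 3, which also had the highest kidney marker sum, 991. The fat hormone receptor sum lay lower in SHR, at 5.46 to 6.58, against 8.44 to 8.81 in Dahl S and 8.01 to 9.16 in Dahl R. The white fat sum overlapped, at 123 to 188 in SHR, 118 to 158 in Dahl S and 166 to 219 in Dahl R. The sum over the adrenal probes ran from 0.75 to 1.68 in SHR, from 0.85 to 1.06 in Dahl S and from 0.92 to 1.11 in Dahl R. The part of fat tissue carried over with the kidney, or of endothelium and smooth muscle, in the Ucp1 and Lpl results was not tested.

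Some genes outside the list ran closely with the fat cell genes over the arrays. The comparison pattern was the mean of Adipoq, Cfd, Cidec and Retn, each centred on its mean, since these 4 were usable and well above background on all 9 arrays. Over 8 or 9 arrays, the 8 most alike genes were Etfa, Capza2, Nt5dc1, Abcd2, Slc44a4, Spag9, Ppp3r1 and Gpr75, with Pearson r from 0.927 for Etfa to 0.894 for Gpr75, where the 95th percentile of 10708 genes was 0.564. These 8 were picked for the highest r, so lying above that percentile follows from the choice. None of them passed the threshold between any 2 strains. Lpl correlated with the pattern at 0.318 over 8 arrays and Fabp4 at 0.695, and with each strain's mean removed at 0.938 and 0.877.

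By the measure without strain means, the 8 most alike genes were Acadl, Ebf2, Cyp4a3, Mrgprf, Ptger4, Cd68, Tjp1 and Itm2a, with r from 0.984 for Acadl to 0.961 for Itm2a, against a 95th percentile of 0.734. Ebf2 is the one gene among these 16 that also stands in a fat list, and Cd68 is a macrophage marker. On SHR replicate 3, the spots of Ebf2, Ptger4, Abcd2 and Gpr75 were not well above background, though their values entered the correlations. Ebf2 and Itm2a were higher in SHR than in Dahl S (adjusted p = 0.0100 and 0.0253), and Mrgprf was higher in SHR and in Dahl S than in Dahl R. These 8 were also picked for the highest r, so their place above the 95th percentile follows from the choice. The points are the same arrays and share their scaling, and the correlations of both measures are descriptions.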

How the data were processed

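One array per rat was read. The authors deposited the scanner output of Agilent Feature Extraction 10.5.1.1. The software subtracted background, removed spatial trends and set a floor to give the processed intensity, per the file headers, and arrays were not normalized to each other. Other deposited columns hold 0 or 1 marks per spot (well above background, saturated, outlier) and a median signal intensity used for the normexp alternative. The authors also deposited log2 values of 19407 probes whose normalization is not given in the sources used here; these were an alternative. Their columns correlated with the scanner signals at 0.974 for SHR replicate 3 and at 0.999 to 1.00 for the other arrays. Lep has no row there.

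Control spots were left out. Each signal was put on the log2 scale relative to its array's 75th percentile over 42136 spots, marked outlier spots were set to missing, and probes were named through RefSeq identifiers (14294 of 24684 probes). Testing required signal well above background in a share of 0.5 or more of the probe's spots, on 3 or more arrays, and a usable spot in every strain; this left 16592 probes for 10861 genes. No spot was saturated. Strains were compared with limma 3.58.1 in R 4.3.3 (lmFit, eBayes), with strain as the only term and Benjamini-Hochberg adjustment at 0.05; the fit was tested on simulated data. The probe with the highest mean stood for a gene with several. The number of arrays limits the precision.

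The genes and lists were chosen with earlier results of these data known. Named are the fat cell genes, up to 4 genes past the threshold per list and comparison by size of difference, with others where a count was small, and the 8 genes most alike in pattern. The lists were other white fat and brown fat genes, triglyceride turnover, fat hormone receptors, connective tissue, endothelium, macrophage, smooth muscle, adrenal gland and kidney; some genes stand in 2 lists, and 1 gene of the receptor list is not reported here and was left out of its counts. Genes of these lists that the rule does not name were chosen after their values were seen. Alternatives were other scalings, normexp, the authors' values, no filter, outlier spots kept, array weights, only the 2 strains compared, scan (in place of the slide planned at first), each array left out, and the replicate number as a block. With scan as a block, SHR minus Dahl R repeats the difference within scan 2, and Dahl S minus Dahl R the difference within scan 1. Each such pair is the same estimate and not a separate check. Replicate numbers did not pair the arrays: deviations from strain means correlated between -0.16 and 0.06 for same-numbered arrays.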

Additional observations from a re-analysis of the deposited data

How the results depend on the processing

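Of 496 recomputed differences of the fat cell genes, 442 kept their direction and their side of the threshold, 22 lost and 2 gained a call, and 30 changed sign, none of them a called value; no cause was tested. In SHR against Dahl S, 2 genes passed as reported, 3 with outlier spots kept and 1 in the authors' values and with scan as a block; leaving out 1 array gave 1 to 2. In SHR against Dahl R, 2 passed as reported, 0 to 2 with 1 array left out, and 1 with the percentile over unmarked probes, quantile normalization, normexp, the authors' values, no filter, outlier spots kept, only the 2 strains compared, scan as a block and within scan 2. In Dahl S against Dahl R, 1 passed with array weights and 0 otherwise, also with 1 array left out.

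Probes past the threshold, in the order SHR against Dahl S, SHR against Dahl R and Dahl S against Dahl R, numbered 2605, 2165 and 233 as reported. They were 601, 477 and 38 with the percentile over unmarked probes, 550, 416 and 43 with normexp, 1491, 1188 and 93 without a filter, 4488, 3954 and 2054 with array weights, and 1076, 1138 and 746 with only the 2 strains compared. With scan as a block SHR against Dahl S gave 866, and within scan 1 Dahl S against Dahl R gave 32. Leaving out 1 array gave 1280 to 4345, 960 to 3772 and 74 to 761; the highest counts came without SHR replicate 3. Outlier spots kept without SHR replicate 3, chosen after seeing the data, gave 4176, 3589 and 710. With the replicate block they were 1902, 1424 and 75, and the genes past it 2, 1 and 0; the numbers do not pair the arrays.

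All sign changes concerned differences that had not passed the threshold. SHR minus Dahl S became positive for Cfd with unmarked probes (0.21), array weights (0.40), scan as a block (0.85) and outliers kept without SHR replicate 3 (0.19), and for Retn with array weights (0.22), scan as a block (0.57) and outliers kept without SHR replicate 3 (0.035). SHR minus Dahl R became positive for Cidec with unmarked probes (0.27) and for Cfd with array weights (0.10), scan as a block (0.16) and within scan 2 (0.16). Dahl S minus Dahl R became negative for Lipe with normexp (-0.059), the authors' values (-0.57), outliers kept (-0.56, also without SHR replicate 3), scan as a block (-0.12) and within scan 1 (-0.12), and for Lpl with scan as a block and within scan 1 (-0.24 each). With 1 array left out, SHR minus Dahl S ran from -0.53 to 0.19 for Cfd, -0.72 to 0.035 for Retn and -0.057 to 0.26 for Lipe, SHR minus Dahl R from -0.11 to 0.10 for Cidec, and Dahl S minus Dahl R from -0.10 to 0.33 for Lpl and -0.020 to 0.28 for Lipe. Signal over background limits Lep, which was not well above background on any array.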
